A study of Mus musculus with 8 samples.

Results

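Asparagine synthetase (Asns) and 9 other genes of the ATF4 stress response were followed in mouse liver. The mice lacked the nuclear receptor SHP, the hormone leptin, both or neither. The 10 genes were Asns, Atf4, Atf5, Atf3, Ddit3, Trib3, Nupr1, Phgdh, Psat1 and Eif4ebp1, out of 12393 genes measured. The array annotation assigned 21 of the 22626 probe sets tested to exactly 1 of these genes. For each gene the brightest probe set, by its mean over the 8 arrays, gives the reported value, and the others serve as a check. Of the 10 genes, 7 had more than 1 probe set. Psat1, Atf3 and Nupr1 had a mean below 4.83, the 40th percentile of all probe sets, and count as dim, and the other 7 lay above it.

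Cells that lack amino acids, or whose endoplasmic reticulum holds unfolded proteins, activate kinases that phosphorylate the translation factor eIF2alpha. General protein synthesis then slows, while the mRNA of the transcription factor ATF4 is translated more. ATF4 pairs with C/EBP-family proteins at short DNA elements and switches on genes that make, import and load amino acids onto tRNA, together with regulators that later damp the response. Because ATF4 is controlled mainly at translation, its mRNA level need not follow its activity.

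Liver RNA of 4 genotypes was hybridised to 8 Affymetrix arrays, 2 per genotype. All mice had the C57BL strain background and standard chow with water freely available. Wild-type mice had neither loss. SHP-/- mice lacked SHP (encoded by Nr0b2, a repressor of other nuclear receptors). OB-/- mice lacked leptin (the hormone with which fat tissue curbs appetite), and OB-/-/SHP-/- mice lacked both. OB-/- and OB-/-/SHP-/- therefore share the leptin loss, and SHP-/- and OB-/-/SHP-/- the SHP loss. The labels give no tissue restriction for either. Sex and age are not given in the labels used here. Nor do they say whether the 2 arrays of a genotype are from different mice, so a p-value here weighs a difference against array-to-array spread that may be technical. With 2 arrays against 2, an exact two-sided permutation test cannot go below p = 0.333. The tests below therefore use limma across all genes, with a gene called at an adjusted p below 0.05, and every difference is on the log2 scale with its moderated standard error (SE).

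The Nr0b2 probe set read 8.74 and 8.71 in wild-type, 7.78 and 8.31 in SHP-/-, 8.01 and 8.01 in OB-/-, with 7.11 and 6.66 in OB-/-/SHP-/-. It was lower on the SHP-null arrays of each leptin background but not at the floor, and its difference passed the test in leptin-null mice (-1.13 ± 0.19, limma adjusted p = 0.0108) and not in leptin-intact mice (-0.68 ± 0.19, limma adjusted p = 0.286). The position of the probe set relative to the altered part of the gene is not given in the sources used here, so it does not check the labels. The leptin gene (Lep) was dim on every array, between 3.16 and 3.53. The 5 measured hepatocyte markers averaged 13.26 to 13.48 on all 8 arrays. Among them Tat read 12.63 and 12.41 in wild-type, 12.69 and 12.51 in SHP-/-, 12.03 and 11.71 in OB-/-, with 12.54 and 12.55 in OB-/-/SHP-/-. Of the 5, 1 was called lower in OB-/- against wild-type, where 9.36% of all genes were. In OB-/-/SHP-/- against OB-/-, 1 of the 5 was called higher, where 1.26% of all genes were. Array medians lay between 5.45 and 5.56, and arrays correlated across genes at r of 0.992 to 0.995 within a genotype and 0.972 to 0.994 between genotypes. The first OB-/- array stood apart by Xist, an X-chromosome RNA of female cells, at 7.41 against 4.31 to 4.70 elsewhere, and the first SHP-/- array by immediate-early genes, a set induced within minutes of stress, which averaged 8.88 against 6.58 to 6.91.

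Asns carries a compact pair of elements at its promoter, and it was the 1 gene with both among the 9 that could be searched. The RefSeq promoter table (assembly GRCm38.p6, from 250 bases before to 50 after each start) held 9 of the 10 genes. Eif4ebp1 was absent. It was searched on both strands for TGATGNAA, a form of the element that ATF4 and C/EBP proteins bind, and for GTTACA, the second element known from the human ASNS promoter. TGATGNAA was in the promoters of Asns, Trib3, Atf3 and Nupr1, against 3.97% of 32851 promoters. GTTACA was in 8.25% of them and both in 0.694%. The first stretch, chr6:7693204-7693349 on the minus strand, shows the Asns region up to the start site, with TGATGAAA at positions -23 to -16 and GTTACA at -3 to 3. The other stretches are chr2:152344028-152344057 (Trib3), chr1:191183425-191183454 (Atf3) and chr7:126625562-126625591 (Nupr1), all on the minus strand, where the element reads in the opposite direction. Matches are in capitals and each sequence runs 5′ to 3′ along its gene.
Asns: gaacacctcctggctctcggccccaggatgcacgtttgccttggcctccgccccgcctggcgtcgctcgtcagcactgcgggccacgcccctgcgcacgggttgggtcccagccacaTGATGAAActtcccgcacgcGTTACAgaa
Trib3: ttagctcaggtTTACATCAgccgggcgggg
Atf3: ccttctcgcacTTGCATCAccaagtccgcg
Nupr1: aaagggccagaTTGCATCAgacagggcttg
A match describes the letters in this window and is not a measured binding site. The 4 genes with the element did not share one pattern across the genotypes, as the values below show.

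Asns makes asparagine from aspartate, with glutamine as the nitrogen donor. Its log2 level was 8.11 and 7.67 on the wild-type arrays, 10.63 and 10.83 on SHP-/-, 4.90 and 5.4 on OB-/-, and 8.00 and 6.44 on OB-/-/SHP-/-. SHP-/- lay above all other arrays and OB-/- below all others, while OB-/-/SHP-/- and wild-type overlapped. With 2 arrays per genotype such separation is common. Between SHP-/- and wild-type, 36.1% of all genes did not overlap, in either direction. The share was 57.5% between OB-/- and wild-type, 40% between OB-/-/SHP-/- and OB-/-, and 53.9% between OB-/-/SHP-/- and SHP-/-. The means ran from SHP-/- (10.73) through wild-type (7.89) and OB-/-/SHP-/- (7.22) to OB-/- (5.15). The neighbours wild-type and OB-/-/SHP-/- did not differ past the threshold (-0.67, 95% interval -1.51 to 0.17, limma adjusted p = 0.274).

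**Figure D1:**
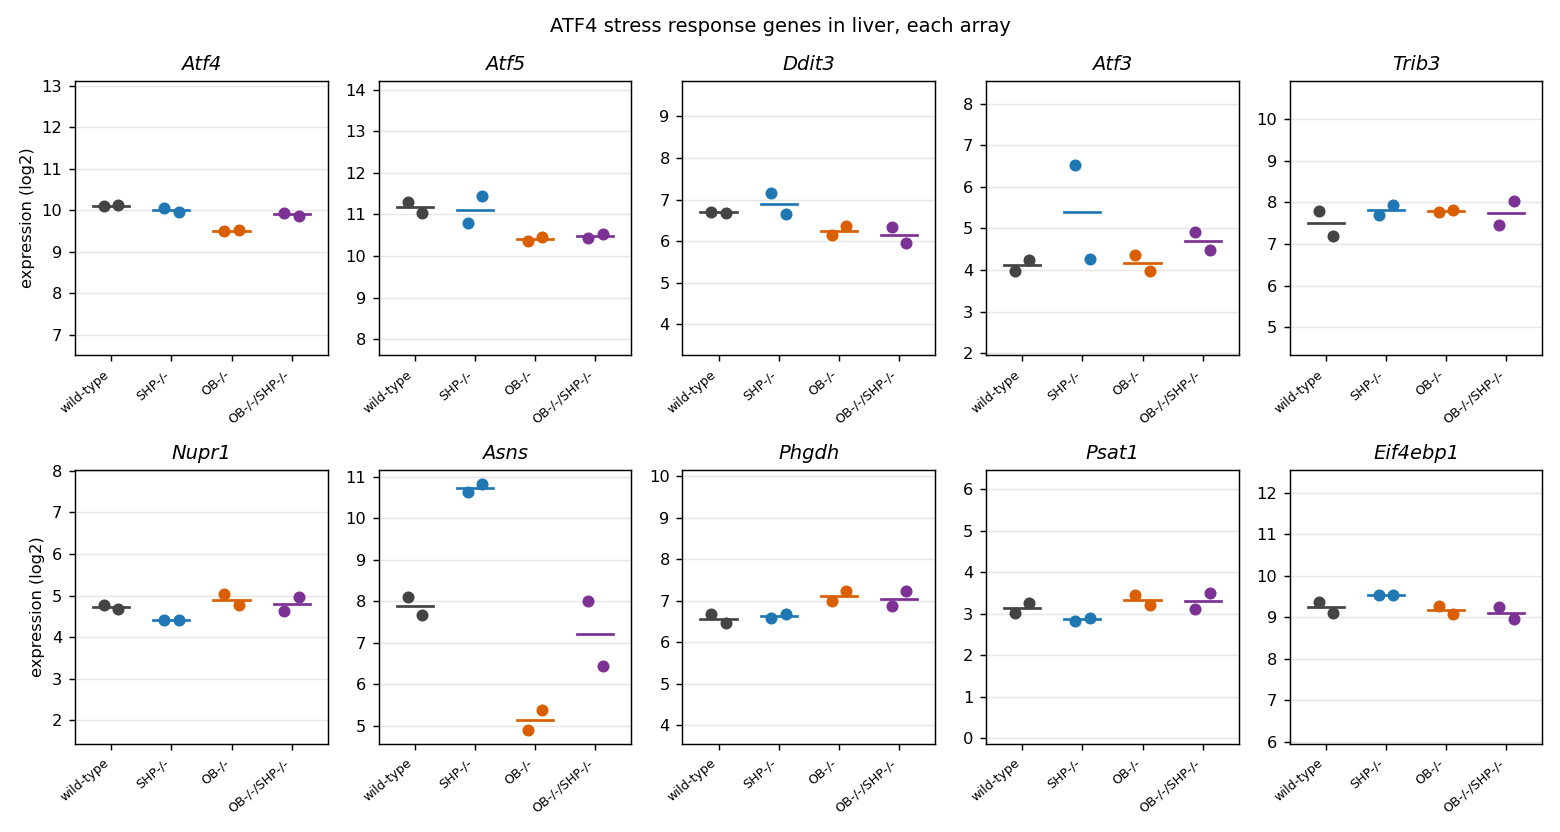
Log2 expression of the 10 genes, 1 panel per gene, with 1 point per array and a bar at the mean of the 2 arrays of each genotype. All panels span the same number of log2 units, so slopes compare across genes but levels do not. Asns separates the genotypes by several units, with the OB-/-/SHP-/- arrays at 8.00 and 6.44, and the other genes differ by far less apart from the first SHP-/- array of Atf3 at 6.52.

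Asns rose with SHP loss in both leptin backgrounds. It rose 7.15-fold in SHP-/- against wild-type (2.84 ± 0.38, 95% interval 2.00 to 3.68, limma adjusted p = 0.00997) and 4.21-fold in OB-/-/SHP-/- against OB-/- (2.07 ± 0.38, 95% interval 1.23 to 2.91, limma adjusted p = 0.0158). By size these were the 2nd and the 33rd largest of 12393 differences in their comparisons. The difference between the rises was not past the threshold (-0.77 ± 0.54, 95% interval -1.95 to 0.42, limma adjusted p = 0.804), an interval that holds both no difference and a rise under leptin loss that is smaller by more than 1 log2 unit. It was -1.55 (limma adjusted p = 0.0759) without the first OB-/-/SHP-/- array and 0.01 (0.997) without the second.

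Leptin loss moved Asns the other way, with and without SHP. Asns fell by 2.75 in OB-/- compared with wild-type, or 6.71-fold (SE 0.38, 95% interval -3.58 to -1.91, limma adjusted p = 7.11e-04), and by 3.51 in OB-/-/SHP-/- against SHP-/-, or 11.4-fold (SE 0.38, 95% interval -4.35 to -2.67, limma adjusted p = 2.09e-04). These comparisons share their arrays with the SHP comparisons above, so the 4 values are not independent of each other. The second Asns probe set gave the same calls and directions, with differences of 2.93 and 2.26 for SHP loss and of -3.08 and -3.75 for leptin loss.

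The OB-/-/SHP-/- arrays differed from each other by 1.56 for Asns, a gap reached by 7 of 12393 genes in that genotype, where the median gap was 0.17. The second probe set read 6.19 and 4.56 on the same arrays, so both probe sets place the first array higher. Leaving out the first of them made the difference from OB-/- 1.29, and leaving out the second made it 2.85. Against wild-type, OB-/-/SHP-/- then stood at -1.45 (limma adjusted p = 0.00445) without the first and at 0.11 without the second. Whether Asns in the double knockout is below the wild-type level thus rests on 1 array.

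Both leptin calls of Asns held in each of 19 alternative settings (limma adjusted p at most 0.0175 and 0.0093), and the SHP calls did not. The call in SHP-/- against wild-type was lost with robust moderation (limma adjusted p = 0.131) and without the first (0.109) or second (0.190) wild-type array, with the difference itself between 2.62 and 3.06. The call in OB-/-/SHP-/- against OB-/- was lost with robust moderation (0.137), without the first (0.172) or second (0.0842) OB-/- array, and without both arrays that stand apart (0.137), where the difference was 1.82.

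**Figure D2:**
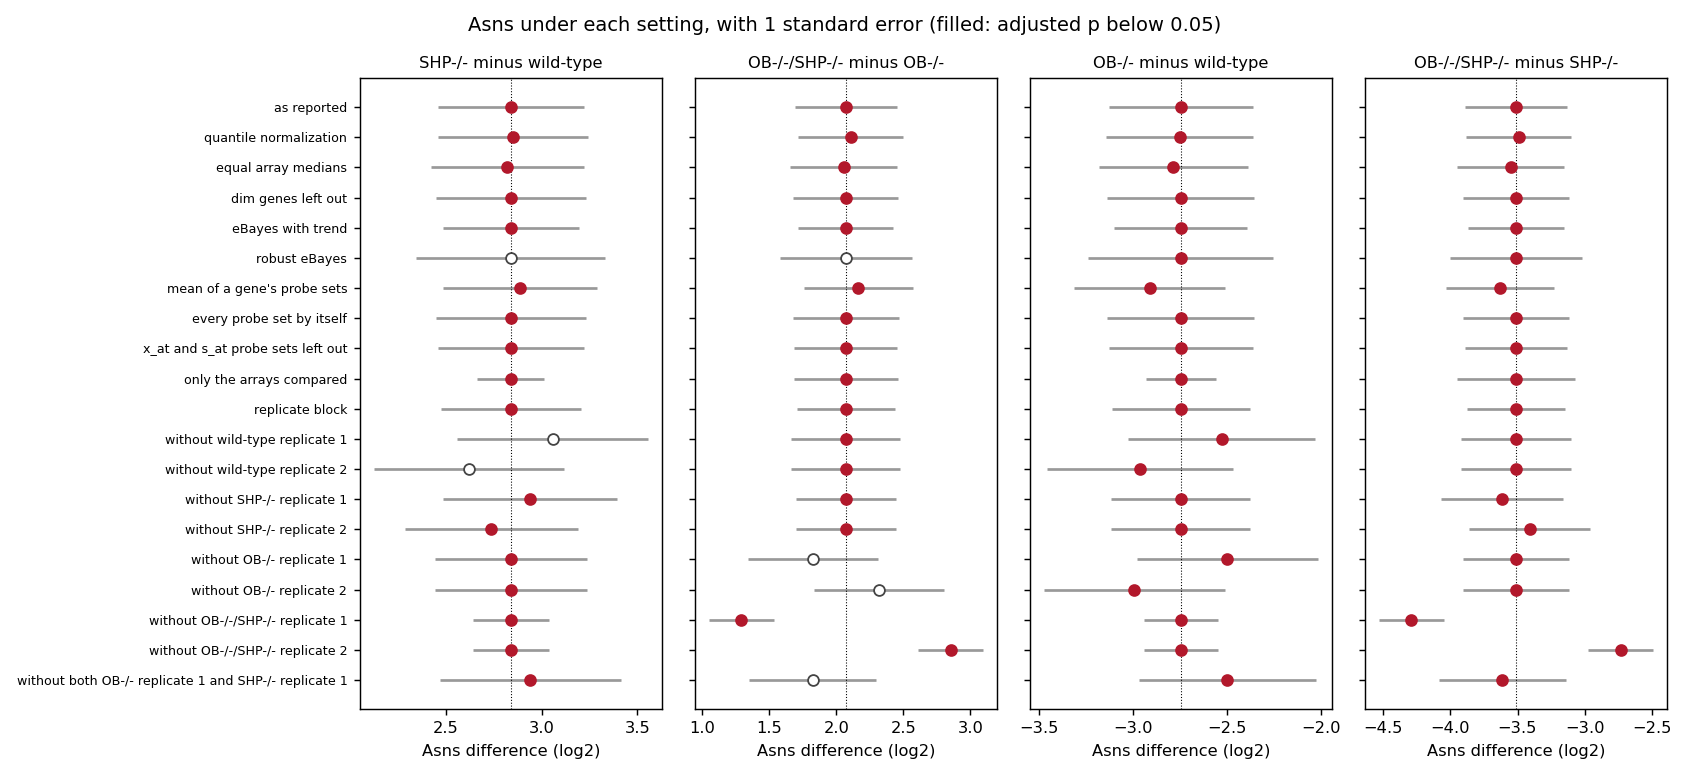
Asns difference on the log2 scale (horizontal axis, whose range differs between panels) under the reported fit and 19 alternatives, with 1 SE as a grey bar and the dotted line at the reported value. Filled points have an adjusted p below 0.05. Open points appear only in the SHP comparisons, 3 for SHP-/- and 4 for OB-/-/SHP-/-.

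None of the other 9 genes was called for SHP loss in either background. Asns was the 1 gene of 10 called in SHP-/- against wild-type, where 0.323% of all genes were called (0.226% higher and 0.0968% lower), and the 1 of 10 in OB-/-/SHP-/- against OB-/-, where 2.14% were (1.26% higher and 0.88% lower). The median difference of the 10 genes was 0.13 and -0.04 in these comparisons, against -0.03 and 0.01 over all genes. At an unadjusted p below 0.05, which 7.12% and 11.7% of all genes reached in these comparisons, Atf3 joined Asns in the first and Atf4 in the second.

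Leptin loss gave more calls. In OB-/- against wild-type, Phgdh rose and Asns, Atf4 and Atf5 fell, 4 of 10 against 16.9% of all genes (7.58% higher and 9.36% lower). In OB-/-/SHP-/- against SHP-/-, Asns and Ddit3 fell, 2 of 10 against 10.6% (4.95% higher and 5.62% lower). The medians of the 10 genes were -0.00 and -0.27, against -0.01 and 0.03 over all genes. In the double knockout against wild-type, 1 of the 10 genes was called, Atf5, against 15.9% of all genes (7.6% higher and 8.25% lower). For the interaction, which asks whether SHP loss acts differently with and without leptin, 0 of 10 were called by limma against 0.549% (0.355% higher and 0.194% lower), and 1 gene, Atf4, had an unadjusted p below 0.05.

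**Figure D3:**
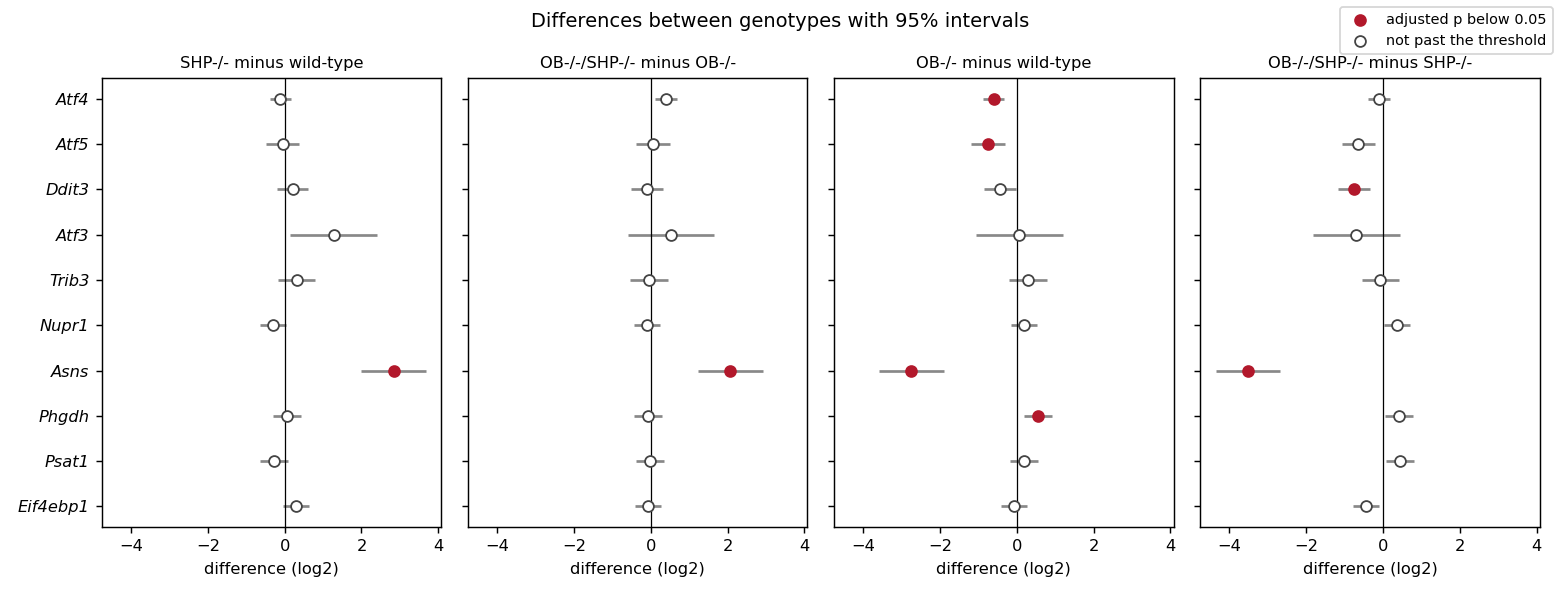
Log2 difference of each gene (points) with its 95% interval (grey bars) in 4 comparisons, ordered as transcription factors, regulators, enzymes and the translation repressor. Filled red points have a limma adjusted p below 0.05, and Asns is the 1 filled point in both SHP comparisons.

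Among the transcription factors, Atf4 itself moved by less than 1 log2 unit. It read 10.10 and 10.12 in wild-type, 10.06 and 9.95 in SHP-/-, 9.50 and 9.52 in OB-/-, with 9.94 and 9.86 in OB-/-/SHP-/-. The OB-/- arrays were the lowest and did not overlap with any other genotype. Such separation, in either direction, held for 57.5% of all genes between OB-/- and wild-type and 40% between OB-/- and OB-/-/SHP-/-. Atf4 fell by 0.60 in OB-/- against wild-type (SE 0.13, limma adjusted p = 0.00812). Its difference for SHP loss was -0.11 ± 0.13 in leptin-intact mice (limma adjusted p = 0.941) and 0.39 ± 0.13 in leptin-null mice (limma adjusted p = 0.200), and the interaction was 0.50 ± 0.18 (limma adjusted p = 0.429). The fall was lost without the first OB-/- array (limma adjusted p = 0.0545), the second (0.0502) and both arrays that stand apart (0.0723). Of its other probe sets, 1 fell by 0.86 in OB-/- (limma adjusted p = 0.013) and 1 stood at -0.09.

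Atf5, a bright liver factor of the same family, read 11.31 and 11.03 in wild-type, 10.79 and 11.45 in SHP-/-, 10.37 and 10.47 in OB-/-, with 10.43 and 10.53 in OB-/-/SHP-/-. Both leptin-null genotypes lay below both leptin-intact ones without overlap. Between OB-/- and wild-type 57.5% of all genes did not overlap, in either direction. The share was 56.3% between OB-/-/SHP-/- and wild-type and 53.9% between OB-/-/SHP-/- and SHP-/-. Atf5 fell by 0.75 in OB-/- against wild-type (SE 0.20, limma adjusted p = 0.0242) and by 0.69 in OB-/-/SHP-/- against wild-type (SE 0.20, limma adjusted p = 0.0381). Against SHP-/-, OB-/-/SHP-/- stood at -0.64 ± 0.20 (limma adjusted p = 0.0664), and at -0.97 and called without the first SHP-/- array (limma adjusted p = 0.00817). It was also called there with moderation by trend (0.0308) and without both arrays that stand apart (0.0192). SHP loss gave -0.05 ± 0.20 and 0.06 ± 0.20. The fall in OB-/- was lost without any 1 of the 4 arrays compared (limma adjusted p up to 0.182), and that in OB-/-/SHP-/- against wild-type in 6 of 19 settings (up to 0.227), among them without any 1 of the 4 arrays compared.

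Ddit3 encodes CHOP, a factor downstream of ATF4 that promotes cell death under lasting stress. It read 6.71 and 6.68 in wild-type, 7.15 and 6.65 in SHP-/-, 6.14 and 6.36 in OB-/-, with 6.34 and 5.96 in OB-/-/SHP-/-. The leptin-null arrays lay below all leptin-intact ones. Separation in either direction held for 57.5% of all genes between OB-/- and wild-type and 53.9% between OB-/-/SHP-/- and SHP-/-. Ddit3 fell by 0.75 in OB-/-/SHP-/- against SHP-/- (SE 0.19, limma adjusted p = 0.0283), a call lost in 6 of 19 settings, among them without the first SHP-/- array (-0.50, limma adjusted p = 0.172). Its other leptin-related differences were -0.44 in OB-/- (limma adjusted p = 0.145) and -0.54 in OB-/-/SHP-/- against wild-type (limma adjusted p = 0.0748). The fall in OB-/- was called with only the arrays compared (limma adjusted p = 0.0483). That in OB-/-/SHP-/- against wild-type ranged from -0.73 to -0.35 over the alternative settings and was called in 3 of 19.

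Atf3, a stress-induced repressor that is also an immediate-early gene, owed its SHP difference to 1 array. It read 3.97 and 4.25 in wild-type, 6.52 and 4.26 in SHP-/-, 4.37 and 3.98 in OB-/-, with 4.92 and 4.48 in OB-/-/SHP-/-. The difference in SHP-/- was 1.28 ± 0.51 (limma adjusted p = 0.628). It was 0.15 without the first SHP-/- array, and 2.41 with a limma adjusted p of 2.71e-04 without the second. Fos, Jun and Egr1, immediate-early transcription factors, were also highest on the first SHP-/- array, at 11.95, 10.74 and 11.38. All 13 immediate-early genes listed were measured. Asns did not share this gap, with 10.63 and 10.83 on the SHP-/- arrays.

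**Figure D4:**
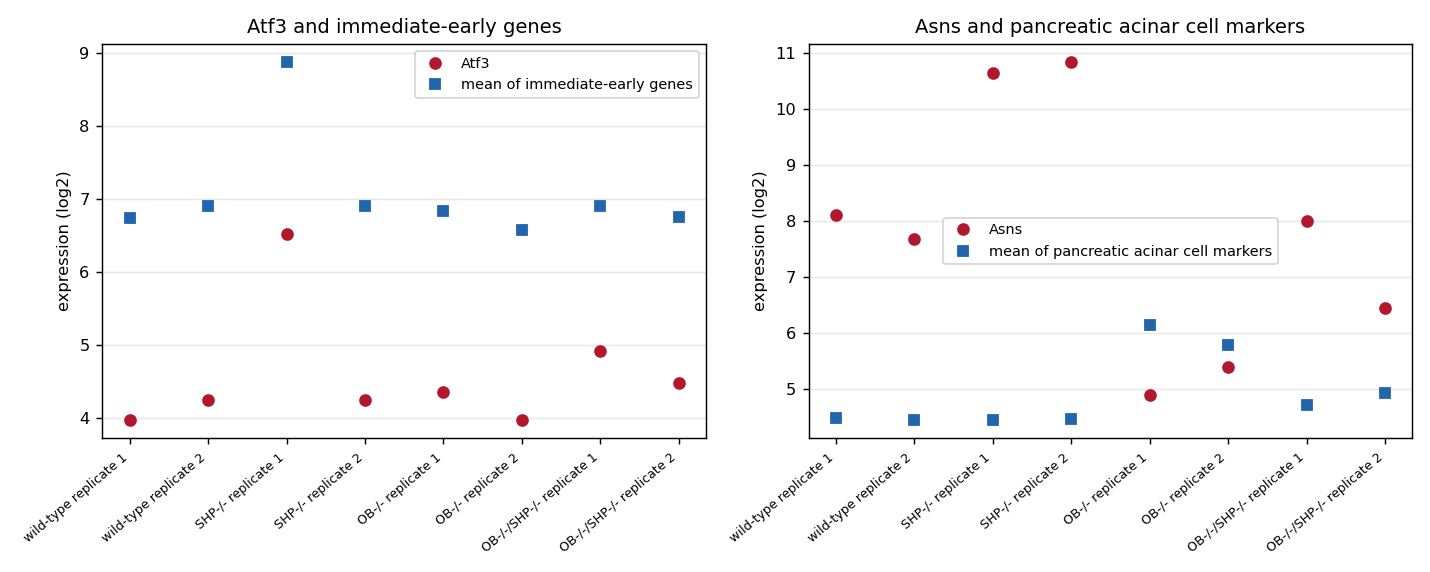
Log2 level on each of the 8 arrays of Atf3 (circles) with the mean of 13 immediate-early genes (squares) in the left panel, and of Asns (circles) with the mean of 12 pancreatic acinar cell markers (squares) in the right panel. Atf3 and the immediate-early mean peak on the first SHP-/- array, and the acinar mean is highest, at 6.15 and 5.78, on the OB-/- arrays where Asns is lowest.

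The regulators did not pass the test in any comparison. Trib3, a pseudokinase that binds ATF4 and CHOP and feeds back on them, is among the genes most used as a readout of ATF4. It read 7.79 and 7.20 in wild-type, 7.68 and 7.94 in SHP-/-, 7.76 and 7.82 in OB-/-, with 7.45 and 8.04 in OB-/-/SHP-/-. The genotypes overlapped. The interval of its difference in SHP-/- ran from -0.17 to 0.80 around 0.31 (limma adjusted p = 0.871), which lies wholly below the Asns interval of 2.00 to 3.68, and its other probe set stood at -0.03. Nupr1, a small stress-induced chromatin protein, was dim, with 4.77 and 4.67 in wild-type, 4.42 and 4.42 in SHP-/-, 5.03 and 4.77 in OB-/-, with 4.64 and 4.96 in OB-/-/SHP-/-. Its difference was -0.30 ± 0.15 in SHP-/- (limma adjusted p = 0.779).

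Phgdh catalyses the first step of serine synthesis from glucose intermediates. It read 6.69 and 6.46 in wild-type, 6.58 and 6.68 in SHP-/-, 7.01 and 7.25 in OB-/-, with 6.87 and 7.24 in OB-/-/SHP-/-. The leptin-null arrays were the higher ones, opposite to Asns. Separation in either direction held for 57.5% of all genes between OB-/- and wild-type and 53.9% between OB-/-/SHP-/- and SHP-/-. Phgdh rose by 0.55 ± 0.16 in OB-/- (limma adjusted p = 0.0395). That call was lost with the mean of its probe sets (0.33, limma adjusted p = 0.113) and without any 1 of the 4 arrays compared (up to 0.245), and its 3 other probe sets stood at 0.27, 0.37 and 0.12. SHP loss gave 0.06 ± 0.16 and -0.07 ± 0.16.

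Psat1, the transaminase of the next step, was the dimmest of the 10, with every array between 2.84 and 3.49, so its differences say little of its mRNA. Eif4ebp1 encodes 4E-BP1, which binds the cap-binding protein eIF4E and restrains translation. It read 9.37 and 9.11 in wild-type, 9.54 and 9.55 in SHP-/-, 9.28 and 9.07 in OB-/-, with 9.25 and 8.96 in OB-/-/SHP-/-. SHP-/- was the highest genotype, by 0.30 ± 0.16 over wild-type (limma adjusted p = 0.772), and OB-/-/SHP-/- stood at -0.44 ± 0.16 against SHP-/- (limma adjusted p = 0.10).

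Over the 8 arrays, the other genes followed Asns to different degrees. Pearson's r with Asns was 0.77 for Ddit3, 0.77 for Eif4ebp1, 0.74 for Atf4, 0.68 for Atf5, 0.52 for Atf3 and -0.05 for Trib3. It was -0.71 for Phgdh, -0.87 for Psat1 and -0.91 for Nupr1. These values describe 8 arrays that fall into 4 genotypes, and the last 2 genes are dim.

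The genes most like Asns were taken from the whole array by their correlation with it, so their values are a description. Among 6887 genes whose mean reached the median of all values, the 5 most like Asns over the 8 arrays were Dsc2 (r = 0.980), Hikeshi (0.976), Nat8f2 (0.973), Rai14 (0.971) and Lsr (0.960). Dsc2, a desmosomal cadherin, differed by 0.44 and 0.41 for SHP loss and by -0.55 and -0.58 for leptin loss. Lsr, a receptor for lipoproteins that also forms tricellular junctions, read between 8.88 and 9.03 in OB-/- and between 10.22 and 10.38 in SHP-/-. The 5 most like Trib3 were Gsr (r = 0.973), Coro1c (0.958), Cask (0.937), Rpn2 (0.924) and Rundc3a (0.919).

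Further genes of the pathway were read from 7 lists with 103 genes, of which 92 were measured. In SHP-/- against wild-type, 0 of 92 were called by limma, against 0.323% of all genes, with a median difference of 0.01. At an unadjusted p below 0.05, which 7.12% of all genes reached, there were 4 among other targets of ATF4 or CHOP. There were 2 each in amino acid synthesis and in the chaperone list, 1 among C/EBP partners and 0 in the remaining 3 lists. In OB-/-/SHP-/- against OB-/-, 3 were called, all higher, against 2.14%. In OB-/- against wild-type, 4 were called higher and 22 lower, against 7.58% and 9.36% of all genes. In OB-/-/SHP-/- against SHP-/-, 5 were called higher and 15 lower, against 4.95% and 5.62%.

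**Figure D5:**
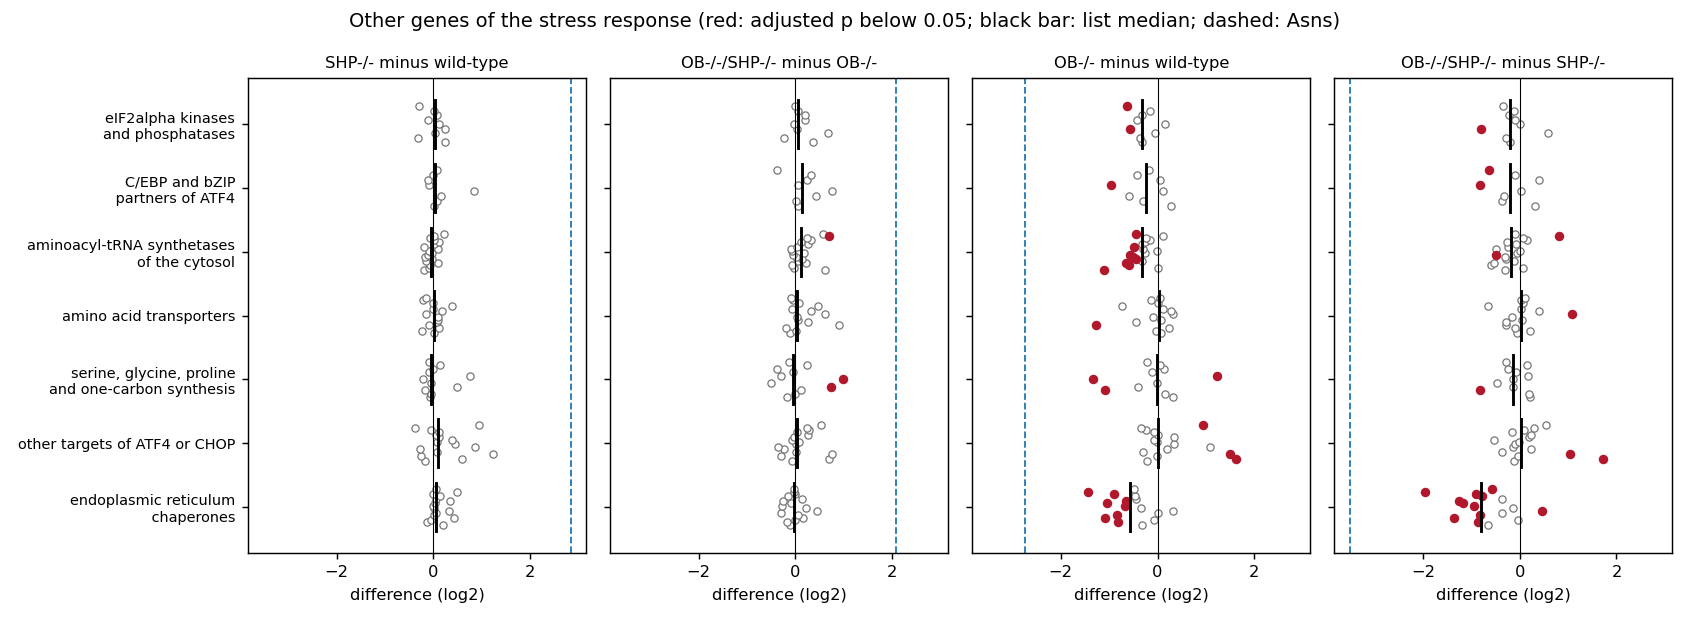
Log2 difference of each measured gene (points) of 7 lists in 4 comparisons, with red points at a limma adjusted p below 0.05, a black bar at the list median and a dashed line at the value of Asns. No point is red in SHP-/- minus wild-type, where every listed gene lies below Asns, and the red points of OB-/- minus wild-type lie mostly below 0.

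The sensors upstream of ATF4 were represented by 9 of 11 eIF2alpha kinases, phosphatases and their helpers. In OB-/- against wild-type, 2 of 9 fell and 0 rose, against 9.36% and 7.58% of all genes. Of these 2, 1 was Eif2ak3, which encodes the endoplasmic reticulum kinase PERK (-0.57, limma adjusted p = 0.0166). Eif2ak3 also fell in OB-/-/SHP-/- against SHP-/- (-0.79, limma adjusted p = 0.0047), and with the mean of its probe sets the values were -0.13 and -0.25, both not called. In all, the Eif2ak3 call in OB-/- was lost in 5 of 19 settings, among them without the first OB-/- array (-0.54). The other was lost in 2 of 19, with that mean and without both arrays that stand apart (-0.73). The list also holds Eif2ak2, the kinase PKR activated by double-stranded RNA. Eif2ak2 read 4.87 and 4.43 in OB-/- against 5.29 and 5.34 in OB-/-/SHP-/-. It did not pass the test in either SHP comparison.

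Among 8 C/EBP and bZIP partners of ATF4, 1 fell and 0 rose in OB-/- against wild-type, against 9.36% and 7.58% of all genes. It was Cebpg (-0.96, limma adjusted p = 0.00448), a partner that forms dimers with ATF4. Cebpg also fell in OB-/-/SHP-/- against SHP-/- (-0.82, limma adjusted p = 0.0167), where 2 of the 8 fell, against 5.62% of all genes. The first of these Cebpg calls was lost in 1 of 19 settings, without the first wild-type array (-0.88). The second was lost in 5 of 19. Among these were the mean of its probe sets (-0.40, limma adjusted p = 0.0797) and only the arrays compared (limma adjusted p = 0.0719). Leaving out both arrays that stand apart (-0.85) was another. For SHP loss, 0 of 8 were called by limma in either background, with 1 and 3 at an unadjusted p below 0.05, against 7.12% and 11.7% of all genes. Cebpd, an acute-phase C/EBP, read 7.51 and 6.97 in wild-type and 8.19 and 7.97 in SHP-/-, and Cebpb, the C/EBP best known as a partner of ATF4, 10.48 and 10.25 against 10.73 and 10.33. The SHP-/- arrays of Cebpd were the higher ones, where 36.1% of all genes did not overlap, and those of Cebpb overlapped with wild-type. In OB-/- against wild-type, Cebpb stood at -0.58 and was not called (limma adjusted p = 0.0643), but it was called in 8 of 19 alternative settings.

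The aminoacyl-tRNA synthetases, which attach amino acids to tRNA and are common ATF4 targets, were represented by 18 of 20 genes. In OB-/- against wild-type, 8 of 18 fell and 0 rose, with a list median of -0.32, and the count ranged from 1 to 8 over the alternative settings. Of all genes, 9.36% were called lower and 7.58% higher in this comparison. Aars, the alanyl enzyme, fell by 1.10 (limma adjusted p = 5.68e-04). In OB-/-/SHP-/- against SHP-/-, 1 fell and 1 rose, against 5.62% and 4.95% of all genes. In SHP-/- against wild-type 0 of 18 were called, also at an unadjusted p below 0.05, with differences from -0.20 to 0.21. Wars, the tryptophanyl enzyme, which interferon induces, rose in OB-/-/SHP-/- against OB-/- (0.70 ± 0.13, limma adjusted p = 0.0153). It read 7.09 and 7.11 in OB-/- against 7.76 and 7.84 in OB-/-/SHP-/-. The rise was lost in 6 of 19 settings, among them with the x_at and s_at probe sets left out (0.43, limma adjusted p = 0.229) and without either OB-/- array.

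Of 14 measured amino acid transporters out of 15, 1 fell and 0 rose in OB-/- against wild-type, against 9.36% and 7.58% of all genes. It was Slc38a2 (-1.27, limma adjusted p = 0.00775), a sodium-coupled carrier of neutral amino acids that amino acid shortage induces. Without the first wild-type array or the second OB-/- array the fall was not called (limma adjusted p = 0.0837 and 0.0876). Slc38a2 read 9.60 and 9.32 in wild-type, 9.74 and 9.02 in SHP-/-, 8.48 and 7.90 in OB-/-, with 9.38 and 8.82 in OB-/-/SHP-/-. OB-/- was thus the lowest genotype for Slc38a2 and for Asns, while SHP-/- was the highest for Asns and overlapped with wild-type for Slc38a2. Slc6a9, a glycine transporter, rose in OB-/-/SHP-/- against SHP-/- (1.09, limma adjusted p = 0.00142), opposite to Asns.

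Enzymes of serine, glycine, proline and one-carbon synthesis and related amino acid steps were represented by 11 of 15 genes. Got1 encodes a cytosolic enzyme that interconverts aspartate and oxaloacetate, with glutamate formed or used in the same step. It read 12.43 and 12.37 in wild-type, 12.09 and 12.27 in SHP-/-, 11.15 and 10.99 in OB-/-, with 11.94 and 12.14 in OB-/-/SHP-/-. The OB-/- arrays lay below all others. Separation in either direction held for 57.5% of all genes between OB-/- and wild-type and 40% between OB-/- and OB-/-/SHP-/-. Got1 fell by 1.33 in OB-/- (limma adjusted p = 1.3e-04) and rose by 0.97 ± 0.14 in OB-/-/SHP-/- against OB-/- (limma adjusted p = 0.00441). In leptin-intact mice its SHP-/- arrays were below wild-type, but the difference was not called (-0.22, limma adjusted p = 0.851). The interaction was 1.19 ± 0.20 (limma adjusted p = 0.0212), where 0.549% of all genes were called. The interaction was not called in 7 of 18 settings, among them without either OB-/- array (limma adjusted p = 0.0728 and 0.142), and the rise was not called without the second OB-/- array (0.0717).

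Cth, which makes cysteine from cystathionine, read 12.06 and 11.92 in wild-type, 12.45 and 12.5 in SHP-/-, 11.78 and 11.40 in OB-/-, with 12.31 and 12.35 in OB-/-/SHP-/-. OB-/- was lowest and SHP-/- highest, like Asns, but OB-/-/SHP-/- lay above wild-type, unlike Asns. Cth was not called against wild-type in OB-/- (-0.40, limma adjusted p = 0.0952) or in SHP-/- (0.48, limma adjusted p = 0.388). It rose in OB-/-/SHP-/- against OB-/- (0.74 ± 0.15, limma adjusted p = 0.0285), a call lost in 6 of 19 settings, among them without the second OB-/- array (0.55, limma adjusted p = 0.299). Cbs, which makes cystathionine, fell in OB-/- (-1.09, limma adjusted p = 5.68e-04), and Gpt2, the mitochondrial alanine transaminase, rose (1.23, limma adjusted p = 3.29e-04). Gpt2 was also higher in SHP-/- than in wild-type, without being called (0.76, limma adjusted p = 0.0819). It was called there in 3 of 19 settings, among them moderation by trend (limma adjusted p = 0.0122). Its interaction was -1.07 and not called (limma adjusted p = 0.0623).

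Of 18 other targets of ATF4 or CHOP, 16 were measured. In OB-/- against wild-type, where Asns fell, 3 rose and 0 fell, against 7.58% and 9.36% of all genes. Ddit4, an inhibitor of mTORC1, rose by 1.5 (limma adjusted p = 0.00347), Vldlr, a lipoprotein receptor, by 0.95 (limma adjusted p = 0.00388) and Cdkn1a, the cell cycle inhibitor p21, by 1.62 (limma adjusted p = 0.00337). Ddit4 and Cdkn1a also rose in OB-/-/SHP-/- against SHP-/- (1.03 and 1.72, limma adjusted p = 0.0344 and 0.00401), with the Ddit4 call lost in 5 of 19 settings. The Cdkn1a rise in OB-/- was 0.86 with the mean of its probe sets (limma adjusted p = 0.082). In SHP-/- against wild-type, Ddit4 read 7.17 and 6.56 against 6.00 and 5.26, and Vldlr 7.01 and 6.94 against 5.80 and 6.28, with neither called. Vldlr passed the test there with moderation by trend (0.93, limma adjusted p = 0.0377) or robust (0.0469), Ddit4 without the second SHP-/- array (1.54, limma adjusted p = 0.0337), and Cdkn1a without the first (1.15, limma adjusted p = 0.0414).

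The list of endoplasmic reticulum chaperones also holds Xbp1, Atf6 and Edem1, which are not chaperones. Its genes are mostly targets of the ATF6 and XBP1 branches of the unfolded protein response more than of ATF4. All 16 were measured. Of all genes, 9.36% were called lower and 7.58% higher in OB-/- against wild-type, and 5.62% and 4.95% in OB-/-/SHP-/- against SHP-/-. In OB-/- against wild-type 8 fell and 0 rose, with a list median of -0.58, and the count ranged from 3 to 11 over the alternative settings. In OB-/-/SHP-/- against SHP-/-, 10 fell and 1 rose, with a median of -0.80, and the number that fell ranged from 5 to 11 over the settings. Sdf2l1, a component of chaperone complexes, read 6.18 and 5.85 in wild-type, 6.00 and 6.99 in SHP-/-, 4.57 and 4.56 in OB-/-, with 4.54 and 4.53 in OB-/-/SHP-/-. The one that rose was Edem1, which helps degrade misfolded proteins (0.46, limma adjusted p = 0.0471), a call lost in 14 of 19 settings, with a value of 0.10 for the mean of its probe sets. For SHP loss 0 of 16 were called by limma in either background, with 2 at an unadjusted p below 0.05 in each, against 7.12% and 11.7% of all genes. Sdf2l1 was called in SHP-/- against wild-type without the first SHP-/- array (0.98, limma adjusted p = 0.0419).

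Other measures also differed between the genotypes, not all in the order of Asns. In bulk tissue, fewer cells of a type and less RNA per cell cannot be told apart. Pancreatic acinar markers, 12 of 14 measured, averaged 4.44 to 4.49 on the wild-type and SHP-/- arrays, 6.15 and 5.78 on OB-/-, and 4.72 and 4.92 on OB-/-/SHP-/-. Of these 12, 8 rose and 1 fell in OB-/- against wild-type, against 7.58% and 9.36% of all genes. They included Clps, a pancreatic colipase, at 7.95 and 7.15 in OB-/-. On the OB-/-/SHP-/- arrays the higher acinar mean was on the second array, where Asns was lower. Pancreatic tissue is itself rich in Asns as background knowledge, and the part of these markers in the Asns differences was not tested.

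Macrophage markers, all 9 measured, averaged 6.38 and 6.28 in wild-type, 7.46 and 6.88 in SHP-/-, 7.5 and 7.48 in OB-/-, with 7.65 and 7.71 in OB-/-/SHP-/-. The macrophage mean was above both wild-type arrays on every array of the other genotypes. Its part in the Asns differences was not tested. The offset of a control gene is the signal of its 3′ probe set minus that of its 5′ probe set, larger where RNA is shorter. For Gapdh it was 0.79 and 1.00 in wild-type, 0.19 and 0.35 in SHP-/-, and between -0.07 and 0.11 on the leptin-null arrays. The offset of Actb was 1.89 and 1.87 in wild-type, 1.25 and 1.35 in SHP-/-, 0.77 and 0.89 in OB-/-, 0.93 and 0.79 in OB-/-/SHP-/-. Both offsets were highest on the wild-type arrays, and lower on every leptin-null array than on the SHP-/- arrays. The part of RNA quality in the differences was not tested.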

How the data were processed

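The authors deposited log2 expression values for every probe set on every array, computed in R 2.15.0 per the submitters' processing notes. Base 2 was inferred from the range of 2.20 to 14.19, since the base is not given in the sources used here, and neither are background correction and summarisation. Of 22690 probe sets, 64 controls were left out, and 20380 of the remaining 22626 named a single gene and 691 named several. Names came from the array annotation, with 20351 gene IDs in the RefSeq gene list of GRCm38.p6, and promoters came from RefSeq for the same assembly.

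With limma 3.58.1, the 4 genotype means were estimated from all 8 arrays together (R 4.3.3, data.table version 1.17.8), with 4 residual and 7.16 prior degrees of freedom, two-sided tests and Benjamini-Hochberg adjustment over 12393 genes per comparison. The script was checked on simulated data. Arrays give no counts, and their number limits the precision.

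The 10 genes and all lists were chosen with earlier results of these data known, so the calls of Asns are not independent support for its choice. By rule, all 10 genes were named, of each list up to 3 genes called for SHP loss or else the 2 with the largest SHP differences, and the 5 genes most like Asns and Trib3. Eif2ak3, Aars, Cebpg, Gpt2, Cbs, Cdkn1a and single markers were named after their values were seen. As alternatives, the comparisons were repeated with quantile normalisation, equal array medians, dim genes left out, moderation with trend or robust, averaging all probe sets of each gene, testing every probe set by itself, x_at and s_at probe sets left out, only the arrays compared, a replicate block, each array left out, and both arrays that stand apart left out.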

Additional observations from a re-analysis of the deposited data

Results flagged for a closer look

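Got1 met the test of a difference between the leptin backgrounds. Its response to SHP loss was higher in leptin-null than in leptin-intact mice by 1.19 (SE 0.20, limma adjusted p = 0.0212). The call was lost in 7 of 18 settings, among them without either wild-type array (limma adjusted p = 0.126 and 0.115) and without either OB-/- array (0.0728 and 0.142), with the difference between 1.09 and 1.30. With 2 arrays per genotype, single arrays were not tested as outliers.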

How the results depend on the processing

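Of 1106 values of the 10 genes under the alternatives, 1013 kept their direction and their side of the threshold, 33 lost a call, 13 gained one, 47 values not called changed sign, and 0 called values reversed. The number of the 10 genes called fell from 1 to 0 in both SHP comparisons with robust moderation, from 2 to 1 in OB-/-/SHP-/- against SHP-/- when fitted on only the arrays compared, and, without both arrays that stand apart, from 4 to 1 in OB-/- against wild-type and from 1 to 0 in OB-/-/SHP-/- against OB-/-. With each array left out in turn, the number ranged from 0 to 2 (SHP-/- against wild-type), 0 to 1 (OB-/-/SHP-/- against OB-/-), 1 to 4 (OB-/- against wild-type), 1 to 3 (OB-/-/SHP-/- against SHP-/-), 0 to 3 (OB-/-/SHP-/- against wild-type) and 0 to 1 (interaction). There, the genotype with 1 array was given the spread of the others. Among the other genes named, Eif2ak3 in OB-/-/SHP-/- against wild-type turned from -0.54 to 0.026 with the mean of its probe sets. The causes were not tested.

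The background counts also moved. Genes called in SHP-/- against wild-type numbered 40, and 68 with trend, 100 with every probe set by itself, 23 with only the arrays compared, and 5 to 95 with 1 array left out. The corresponding ranges with 1 array left out were 80 to 298 (reported 265), 956 to 2234 (2100), 600 to 1307 (1311), 820 to 1998 (1965) and 32 to 113 (68). Every probe set by itself gave 3592, 3350 and 120 in place of 2100, 1965 and 68. Only the arrays compared gave 615 in place of 1311, and leaving out both arrays that stand apart gave 119, 1121, 632 and 39 in place of 265, 2100, 1311 and 68. With equal medians, the share of higher calls in OB-/-/SHP-/- against wild-type went from 47.9% to 37.6%, and no setting shifted the median of all genes by 0.1.

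With the replicate number as a block, the number of the 10 genes called was 1, 1, 4, 2, 1 and 0 in the 6 comparisons, and all 60 of their values kept direction and call. Of other genes named, the block added Slc38a2 (0.91, limma adjusted p = 0.0092) and Cebpd (0.75, 0.0477) to OB-/-/SHP-/- against OB-/- and Cebpb (-0.58, 0.0464) to OB-/- against wild-type, and dropped Edem1 (0.46, 0.0556) in OB-/-/SHP-/- against SHP-/- and Eif2ak2 (0.62, 0.0517) in OB-/-/SHP-/- against wild-type. Deviations of same-numbered arrays correlated at 0.10 to 0.20 among wild-type, OB-/- and OB-/-/SHP-/- and at -0.11 to -0.01 between these and SHP-/-, and the labels give the numbers no shared origin, so they were not taken to pair the arrays. Dim genes left out removed Psat1, Atf3 and Nupr1, x_at and s_at probe sets left out removed Phgdh, and the interaction could not be fitted with only the arrays compared.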
